A study of Mus musculus with 17 samples.

Results

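Liver macrophages that carried the Cx3cr1 reporter were compared with Kupffer cells from mice on the same obesogenic diet. The comparison used 9 of the 17 samples of the series: 4 libraries of Cx3cr1-positive macrophages (named hf1, hf2, hf3 and hfd2) and 5 libraries of Kupffer cells, of which 4 carry the same names and hfd1 has no partner. All mice were C57BL/6 of the Cx3Cr1-GFP/WT line, in which GFP reports the Cx3cr1 locus, and both groups ate a diet rich in fat and sucrose (HFD, Research Diets D12492) for 16 weeks. Liver cells high in F4/80 were sorted on GFP for the Cx3cr1-positive group and on TIM4 for the Kupffer group. The Kupffer libraries hf1, hf2 and hf3 are tagged CD68 in their cell type label, and hfd1 and hfd2 are tagged frac_neg, although the design text describes a single Kupffer gate. RNA was measured by single-end sequencing of whole sorted populations, and 2 other groups, 5 libraries of adipose tissue macrophages on HFD (sorted on F4/80 and CD64) and 3 of Kupffer cells on standard chow, serve here for levels. Nothing in the labels says whether libraries came from separate animals or pools, so p-values measure the spread between these libraries.

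Kupffer cells are the resident macrophages of the liver sinusoids. They clear particles, complement-coated material and worn red cells from portal blood, and their identity is maintained by signals from endothelial, stellate and liver parenchymal cells acting through transcription factors such as LXR alpha (Nr1h3), Id3 and Spic. TIM4 (Timd4) marks long-settled cells of embryonic origin in mice. Monocyte-derived macrophages that enter the liver can acquire parts of the same programme with time, and CX3CR1, the fractalkine receptor, is a receptor of monocytes and of many recently derived macrophages.

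The 9 libraries held 25644835 to 38207943 counts. The first principal component, with 44% of the variance, placed the 4 Cx3cr1-positive libraries on one side and the 5 Kupffer libraries on the other, and every library correlated best with one of its own group. The second component, with 18.6% of the variance, divided the Kupffer group itself, with hf1 and hf2 at -43.27 and -36.18 and hfd1, hf3 and hfd2 at 28.56, 24.17 and 15.28, a split that does not follow the CD68 and frac_neg tags. Kupffer hfd1 lay farthest from the Cx3cr1-positive libraries on the first component and Kupffer hfd2 nearest. Each Kupffer library was placed, on the log2 scale, along the way from the mean of the other Kupffer libraries to the Cx3cr1-positive mean. Over the genes called at 2-fold or more, Kupffer hfd2 lay a median 22.3% of the way. The median was -16.2% for hfd1, -10.8% for hf1, -0.895% for hf2 and 1.29% for hf3. Many calls and folds that change without hfd2 or another library are given with and without it, but not every such change is given.

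The genes that set the groups apart in the sort, GFP at the Cx3cr1 locus and TIM4, are no finding between the groups and followed the labels. Cx3cr1 stood at 453, 453, 382 and 303 CPM (read counts scaled to library size and by TMM factors) in Cx3cr1-positive hf1, hf2, hf3 and hfd2, against 9.21 CPM in Kupffer hfd1, 5.00 in hf1, 14.3 in hf2, 4.73 in hf3 and 15.2 in hfd2. Timd4 stood at 32.5, 26.3, 42.9 and 41.1 CPM in Cx3cr1-positive hf1, hf2, hf3 and hfd2, against 1655 CPM in Kupffer hfd1, 1381 in hf1, 1045 in hf2, 1179 in hf3 and 402 in hfd2. Both genes separated the groups without overlap, and Timd4 was lowest among the Kupffer libraries in hfd2. Adgre1, which encodes the F4/80 antigen that was required to be high in both groups, stood at 2074, 2844, 2204 and 3895 CPM in Cx3cr1-positive hf1, hf2, hf3 and hfd2, against 7015 CPM in Kupffer hfd1, 4299 in hf1, 4715 in hf2, 4088 in hf3 and 4633 in hfd2. It was lower without overlap (log2 fold change -0.85 ± 0.22, SE, edgeR adjusted p = 0.0153), and the call was lost without Cx3cr1-positive hf1 or hf3. Of 10 general macrophage markers 2 were lower, Adgre1 and the growth factor receptor Csf1r (log2 fold change -0.50), and none was higher. That count was 0 without Cx3cr1-positive hf1 or hf3, and 1 without Kupffer hfd1. Cd68 and Fcgr1 (CD64) did not pass the test (log2 fold changes 0.16 and 0.14).

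Of 15285 genes tested with edgeR's quasi-likelihood test, 2037 (13.3%) passed a Benjamini-Hochberg adjusted p of 0.05. Of these, 894 (5.85%) were higher and 1143 (7.48%) lower in Cx3cr1-positive macrophages, and 1138 (7.45%) differed at least 2-fold. The falls reached further: 114 genes fell and 63 rose at least 8-fold. The libraries of the groups did not overlap for 1515 of the 2037 called genes, where 1946 of all tested genes (12.7%) had no overlap, and 1883 of the called genes moved in the direction of the fit in all 4 same-named pairs. Without Cx3cr1-positive hf3 the count was 1327 genes, 572 higher and 755 lower, and the 8 paired libraries fitted alone without a pair term gave 1014. Fewer cells of a type and less RNA per cell cannot be told apart in these bulk samples.

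**Figure D1:**
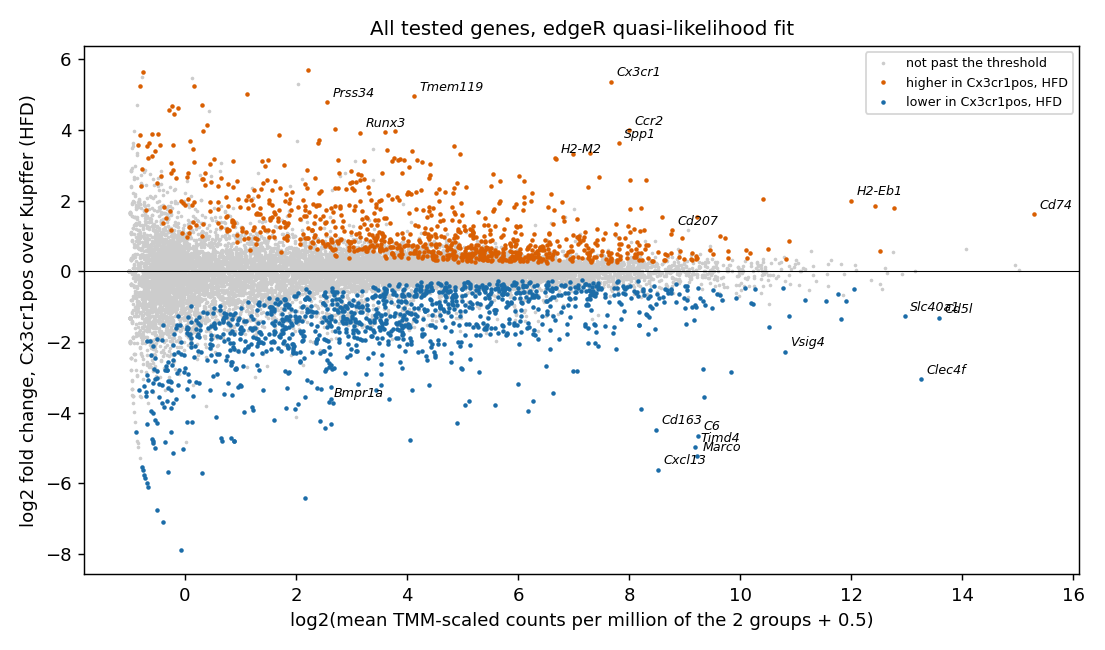
Every tested gene by its mean level (x axis, log2 of TMM-scaled CPM plus 0.5) and its log2 fold change, Cx3cr1-positive over Kupffer cells on HFD (y axis); orange and blue points passed the threshold, grey points did not. The fallen genes reach further at high levels, where Cxcl13, Marco, Timd4, C6 and Cd163 lie at -5.61 to -4.49, while Cd74 and H2-Eb1 lie at 1.62 and 2.0.

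Kupffer cell surface and secreted genes fell together but to very different depths. Of 20 tested members of the list, 17 were lower and 1 was higher in Cx3cr1-positive macrophages, with a median log2 fold change of -2.24, where the median of all tested genes was 0.00196. Timd4, a gene of the sort, is among the 17. The summed level of the list was 12400 to 26600 CPM in the Cx3cr1-positive libraries and 51100 to 76500 CPM in the Kupffer libraries, without overlap.

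One set of these genes was nearly lost. Marco, a scavenger receptor for bacteria and particles, stood at 37.8, 11.5, 37.8 and 36.9 CPM in Cx3cr1-positive hf1, hf2, hf3 and hfd2, against 1863 CPM in Kupffer hfd1, 2000 in hf1, 524 in hf2, 931 in hf3 and 508 in hfd2. The Cx3cr1-positive mean was 2.66% of the Kupffer mean (log2 fold change -5.23 ± 0.50, SE, adjusted p = 4.68e-06). C6, a component of the membrane attack complex, averaged 46.0 ± 25.0 CPM in Cx3cr1-positive macrophages and 1159 ± 349 CPM in Kupffer cells (SD, n = 4 and 5), or 3.97%. Cd163, the haptoglobin-hemoglobin receptor, averaged 4.46% of its Kupffer level, and its Cx3cr1-positive level was also below that of adipose macrophages, at 30.7 ± 10.8 CPM against 157 ± 60.8 CPM (SD, n = 4 and 5, edgeR adjusted p = 0.000109). Cxcl13, the B cell attracting chemokine, showed the largest fall of a named gene (log2 fold change -5.61 ± 0.78, edgeR adjusted p = 0.000129), with 27.6, 5.49, 16.9 and 8.79 CPM in Cx3cr1-positive hf1, hf2, hf3 and hfd2, against 969 CPM in Kupffer hfd1, 1841 in hf1, 170 in hf2, 450 in hf3 and 153 in hfd2. Its Kupffer levels spread widely, yet the groups did not overlap, and without Kupffer hf1 the log2 fold change of Cxcl13 was -4.92.

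A second set was reduced but still plainly present. Clec4f, a galactose-binding lectin restricted to Kupffer cells in mice, stood at 1035, 2878, 1052 and 3526 CPM in Cx3cr1-positive hf1, hf2, hf3 and hfd2, against 16880 CPM in Kupffer hfd1, 20221 in hf1, 22488 in hf2, 14819 in hf3 and 13681 in hfd2. Within pairs Clec4f stood at 5.12% (hf1) to 25.8% (hfd2) of the Kupffer level (log2 fold change -3.05 ± 0.32, edgeR adjusted p = 1.2e-05), while adipose macrophages averaged 51.1 ± 2.26 CPM (SD, n = 5). Vsig4, the complement receptor of the immunoglobulin family, averaged 20.7% of its Kupffer level, Fcna (ficolin A) 14.0%, Folr2 (folate receptor beta) 14.8% and Cdh5 (VE-cadherin) 21.6%. Cd5l, a secreted inhibitor of macrophage apoptosis, kept 39.8% and Slc40a1, the iron exporter ferroportin, 41.5% of the Kupffer mean.

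Within the Cx3cr1-positive group the second set was higher in hf2 and hfd2 than in hf1 and hf3. Cd5l stood at 9248 and 9542 CPM in Cx3cr1-positive hf2 and hfd2, against 4465 and 4670 CPM in hf1 and hf3. Slc40a1 stood at 7634 and 5823 CPM in Cx3cr1-positive hf2 and hfd2, against 2717 and 2660 CPM in hf1 and hf3, and Cx3cr1-positive hf2 overlapped Kupffer hf3 at 7608 CPM. Slc40a1 did not pass in the 9-library fit without Kupffer hfd2. Timd4 and Marco did not follow that order.

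At the upper end the 2 groups lay close. Clec1b, the podoplanin receptor CLEC-2, kept 63.0% of the Kupffer mean (log2 fold change -0.67 ± 0.17, edgeR adjusted p = 0.0159), and it lost the call without Cx3cr1-positive hf3. Il18bp, the IL-18 decoy receptor, averaged 1052 ± 403 CPM in Cx3cr1-positive macrophages and 1596 ± 309 CPM in Kupffer cells (SD, n = 4 and 5) and did not pass the test (edgeR adjusted p = 0.101). With the pair as a block Il18bp passed as lower, at -0.70. Cd207 (langerin) was the only member of the list that passed the test as higher, with 567, 765, 471 and 626 CPM in Cx3cr1-positive hf1, hf2, hf3 and hfd2, against 272 CPM in Kupffer hfd1, 150 in hf1, 271 in hf2, 214 in hf3 and 453 in hfd2 (log2 fold change 1.16 ± 0.23, edgeR adjusted p = 0.00278). Kupffer cells on standard chow averaged 918 CPM of Cd207. Against the frac_neg Kupffer libraries alone Cd207 did not pass the test.

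Adipose macrophages on the same diet set a level for macrophages outside the liver, with tissue and gate differing together. In the same 17-library fit 39.7% of all genes differed between Cx3cr1-positive liver macrophages and adipose macrophages. Of the 17 Kupffer genes lower than in Kupffer cells, 15 were higher than in adipose macrophages and 2 were lower, Cd163 and Folr2. Clec1b averaged 617 ± 204 CPM in Cx3cr1-positive macrophages and 4.53 ± 0.446 CPM in adipose macrophages (SD, n = 4 and 5), and Timd4 35.7 ± 7.75 CPM and 5.75 ± 1.45 CPM.

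**Figure D2:**
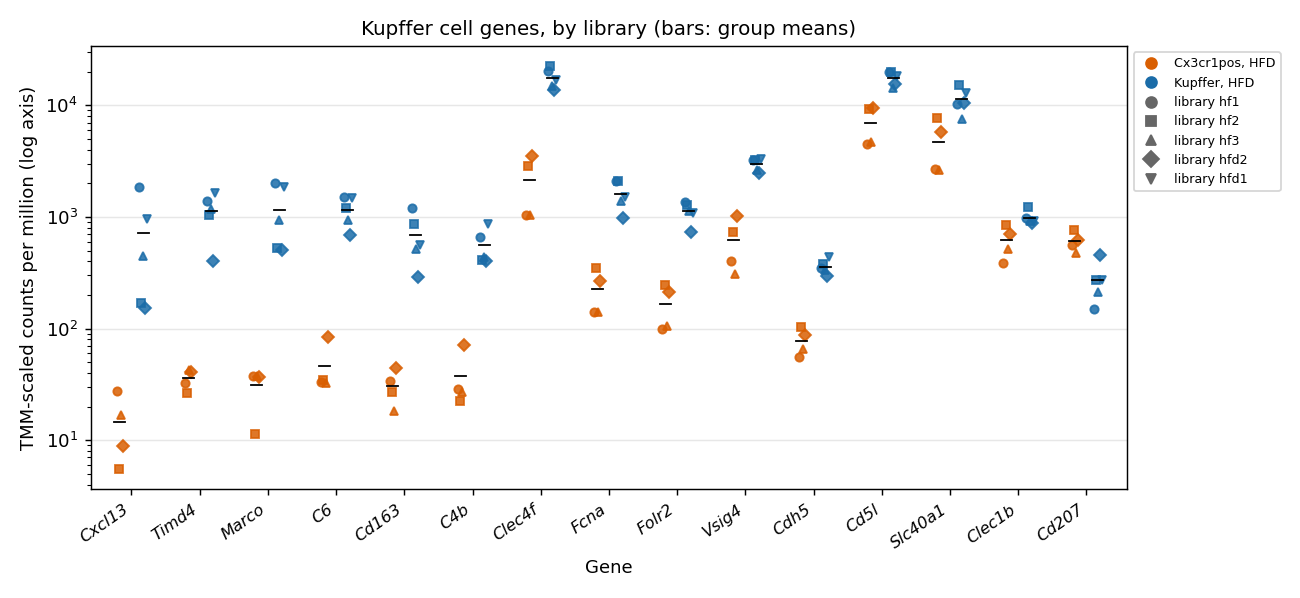
TMM-scaled CPM (log axis) of 15 Kupffer cell genes in the 4 Cx3cr1-positive (orange) and 5 Kupffer (blue) HFD libraries, each library with its own symbol and each group with a bar at its mean. The gap narrows from left to right, with Cxcl13 at 2.05% and Clec1b at 63.0% of the Kupffer mean, and Cd207 is the gene that lies higher in Cx3cr1-positive macrophages.

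Complement genes followed the Kupffer genes in part. Of 19 tested, 10 were lower and 1 was higher (median log2 fold change -1.20), and Vsig4, C6 and Fcna belong to both lists. C2, the classical pathway protease, stood at 1.99, 1.95, 3.17 and 4.29 CPM in Cx3cr1-positive hf1, hf2, hf3 and hfd2, against 79.3 CPM in Kupffer hfd1, 69.9 in hf1, 53.5 in hf2, 55.5 in hf3 and 20.6 in hfd2 (log2 fold change -4.29 ± 0.35, edgeR adjusted p = 1.69e-06). C4b fell by 3.90 on the log2 scale, although reads of C4b may be shared with its near-identical neighbour C4a. The regulator Cd55 fell by 2.83. The C1q chains did not pass the test: C1qb averaged 7547 ± 604 CPM in Cx3cr1-positive macrophages and 7990 ± 976 CPM in Kupffer cells (SD, n = 4 and 5, edgeR adjusted p = 0.732). C5ar1, the receptor for the anaphylatoxin C5a, rose by 0.96 ± 0.20 on the log2 scale (edgeR adjusted p = 0.00426).

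Against shares of 7.48% lower and 5.85% higher over all genes, 8 of 20 iron and heme genes were lower and none passed as higher. Besides Cd163 and Slc40a1 these included Hmox1, heme oxygenase, at 1105 ± 340 CPM in Cx3cr1-positive macrophages and 2647 ± 641 CPM in Kupffer cells (SD, n = 4 and 5), and Tfrc, the transferrin receptor, which fell by 1.02 on the log2 scale. Against the frac_neg Kupffer libraries alone 3 of the 20 were lower. Among scavenger and apoptotic cell receptors 7 of 20 were lower and 2 were higher. Timd4, a gene of the sort, is among the 7. The 2 that rose were Itgb5 and Itgav, which together form the alpha-v beta-5 integrin that binds apoptotic cells through bridging proteins. Their log2 fold changes were 1.19 ± 0.22 and 0.82 ± 0.17 (edgeR adjusted p = 0.00174 and 0.00425). Itgav did not pass in the 9-library fit without Kupffer hfd2. Colec12, a collectin scavenger receptor, fell to 4.41 ± 4.93 CPM in Cx3cr1-positive macrophages, against 60.4 ± 14.3 CPM in Kupffer cells (SD, n = 4 and 5), with a log2 fold change of -3.78 and of -4.97 without Cx3cr1-positive hfd2.

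Further falls lay outside these lists. Sdc2 (syndecan-2), Enpp2 (autotaxin, which makes lysophosphatidic acid), Slc1a3 (a glutamate transporter), Angptl7 and Tmc3 were among the 20 largest falls, with log2 fold changes between -3.95 for Tmc3 and -3.21 for Slc1a3. Without Cx3cr1-positive hfd2 the value of Enpp2 was -4.61, against -3.62 with it. Icos, known as a costimulatory receptor of T cells, stood at 4.70, 20.6, 9.77 and 15.6 CPM in Cx3cr1-positive hf1, hf2, hf3 and hfd2, against 149 CPM in Kupffer hfd1, 107 in hf1, 152 in hf2, 100 in hf3 and 66.7 in hfd2. None of 17 T and NK cell markers passed the test, and their median log2 fold change was 0.434. Their sum was 39.3 to 96.3 CPM in the Cx3cr1-positive and 16.6 to 111 CPM in the Kupffer libraries. The cell source of Icos was not tested.

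Transcription factors known from Kupffer cells differed far less than the surface genes. Of 31 factors of macrophages and monocytes tested, 8 were higher and 1 was lower. Id3, which Kupffer cells need in mice, stood at 1035, 1130, 1337 and 763 CPM in Cx3cr1-positive hf1, hf2, hf3 and hfd2, against 1002 CPM in Kupffer hfd1, 1244 in hf1, 1182 in hf2, 1600 in hf3 and 916 in hfd2, and the groups overlapped (log2 fold change -0.16 ± 0.20, edgeR adjusted p = 0.67). Nr1h3 averaged 846 ± 138 CPM in Cx3cr1-positive macrophages and 1105 ± 149 CPM in Kupffer cells (SD, n = 4 and 5, edgeR adjusted p = 0.0746). In adipose macrophages Id3 averaged 46.9 ± 12.7 CPM and Nr1h3 105 ± 13.3 CPM (SD, n = 5), both below Cx3cr1-positive macrophages (edgeR adjusted p = 1.54e-10 and 8.08e-11). Id1, Rxra, Maf, Zeb2 and Tfec did not pass the test either. With the pair as a block Rxra and Tfec passed as lower, at log2 fold changes of -0.44 and -0.69. Spic, which controls heme-handling macrophages, was the factor that passed as lower (log2 fold change -0.75 ± 0.22, edgeR adjusted p = 0.0311). Spic did not pass with the pair as a block, nor without Kupffer hfd1, Kupffer hf1 or Cx3cr1-positive hf1, hf3 or hfd2. With the block 3 of the 31 factors were lower.

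The factors that rose included Runx1, Runx2 and Runx3 of the RUNX family. Runx3, a factor known from T cells and some tissue macrophages and dendritic cells, stood at 24.8, 9.14, 21.2 and 8.16 CPM in Cx3cr1-positive hf1, hf2, hf3 and hfd2, against 0.685 CPM in Kupffer hfd1, 0.470 in hf1, 0.753 in hf2, 2.12 in hf3 and 1.13 in hfd2 (log2 fold change 3.93 ± 0.46, edgeR adjusted p = 2.76e-05). Adipose macrophages averaged 0.988 ± 0.454 CPM of Runx3 (SD, n = 5). Runx2 rose by 2.77 ± 0.40 and Bhlhe41, a repressor of the basic helix-loop-helix family, by 2.96 ± 0.31 on the log2 scale (edgeR adjusted p = 0.00016 and 1.25e-05). Pparg, the lipid-sensing nuclear receptor, Rbpj, the DNA-binding factor of Notch signalling, and Cebpa rose by 1.25, 0.87 and 1.32. Cebpa lost the call without Cx3cr1-positive hf1 or hf3, and in the 9-library fit without Kupffer hfd2. Runx1 lost it without Kupffer hfd1, hf2 or hf3 or without Cx3cr1-positive hf1 or hf3. Without Kupffer hfd2, in a fit of the other 8 libraries of both groups, 5 of the 31 factors were higher, as they were without Cx3cr1-positive hf3.

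Signalling genes of the niche moved in both directions. Bmpr1a, a receptor for bone morphogenetic proteins, stood at 0.995, 0.730, 0.622 and 0.802 CPM in Cx3cr1-positive hf1, hf2, hf3 and hfd2, against 9.74 CPM in Kupffer hfd1, 16.0 in hf1, 11.4 in hf2, 11.1 in hf3 and 2.96 in hfd2 (log2 fold change -3.70 ± 0.46, edgeR adjusted p = 4.43e-05). Tgfbr1, a receptor chain for TGF-beta, averaged 378 ± 43.3 CPM in Cx3cr1-positive macrophages and 165 ± 46.9 CPM in Kupffer cells (SD, n = 4 and 5, edgeR adjusted p = 0.000377). Dtx4 and Smad3 also rose (log2 fold changes 1.66 and 0.90), and the receptor Acvrl1 did not pass the test at 0.02. Smad3 did not pass in the 9-library fit without Kupffer hfd2. In all 5 of 22 genes of BMP, TGF-beta and Notch signalling were higher and 1 was lower. The shares over all tested genes were 5.85% and 7.48%. The count of higher members was 3 without Kupffer hf3, without Cx3cr1-positive hf1 or without Cx3cr1-positive hf3, and 2 in the 9-library fit without Kupffer hfd2.

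Beside Cx3cr1 itself, the largest rises included receptors, adaptors and adhesion molecules. Tmem119, a membrane protein best known from microglia, stood at 57.6, 23.0, 33.7 and 16.7 CPM in Cx3cr1-positive hf1, hf2, hf3 and hfd2, against 1.13 CPM in Kupffer hfd1, 0.802 in hf1, 0.282 in hf2, 0.563 in hf3 and 2.45 in hfd2 (log2 fold change 4.96 ± 0.52, edgeR adjusted p = 1.2e-05). Every Cx3cr1-positive library lay above every Kupffer library, and the lowest Cx3cr1-positive value was that of hfd2. Ccr2, the receptor that brings monocytes into tissue, averaged 482 ± 196 CPM in Cx3cr1-positive macrophages and 30.1 ± 11.4 CPM in Kupffer cells (SD, n = 4 and 5, edgeR adjusted p = 2.95e-06).

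Among the 20 largest rises 7 were also higher than in adipose macrophages, 7 were lower and 6 did not pass that test. Those higher than in both groups were Cx3cr1, Tmem119, Gpr141 (an orphan receptor), H2-M2 (a class Ib histocompatibility gene), Ace (angiotensin converting enzyme), Ccr2 and Krt80. Cx3cr1 among them was a gene of the sort. H2-M2 averaged 182 ± 35.2 CPM in Cx3cr1-positive macrophages, 15.4 ± 6.61 CPM in adipose macrophages and 19.9 ± 22.5 CPM in Kupffer cells (SD, n = 4, 5 and 5), with Kupffer hfd2 at 58.7 CPM and the other Kupffer libraries at 2.87 to 17.8 CPM. Its log2 fold change over Kupffer cells was 3.19, and 4.14 without Kupffer hfd2. Olfml3, a secreted matrix protein known from microglia and named after its values were seen, averaged 175 ± 24.5 CPM in Cx3cr1-positive macrophages, 21.6 ± 1.76 CPM in adipose macrophages and 44.8 ± 16.1 CPM in Kupffer cells.

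Others rose only part of the way to the adipose level. Gpr34, a lysophosphatidylserine receptor, averaged 24.9 ± 9.05 CPM in Cx3cr1-positive macrophages, 191 ± 53.0 CPM in adipose macrophages and 2.78 ± 1.92 CPM in Kupffer cells (SD, n = 4, 5 and 5). Fcrls, an Fc receptor-like gene of mouse microglia, averaged 25.4 ± 13.5, 350 ± 101 and 2.80 ± 2.34 CPM in the same order of groups. Lat2, an adaptor of immune receptors, Myo5a, Alcam and Mcub were likewise higher than in Kupffer cells and lower than in adipose macrophages, and Myo5a had a log2 fold change over Kupffer cells of 3.33, or 4.05 without Kupffer hfd2. P2ry12 and P2ry13, purinergic receptors that are also known from microglia, were lower than in Kupffer cells (log2 fold changes -0.71 and -0.72). P2ry12 lost the call without Kupffer hfd1 or hf2 or Cx3cr1-positive hf1 or hf3, and P2ry13 without Kupffer hfd1, hf1 or hf2 or Cx3cr1-positive hf1, hf3 or hfd2.

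**Figure D3:**
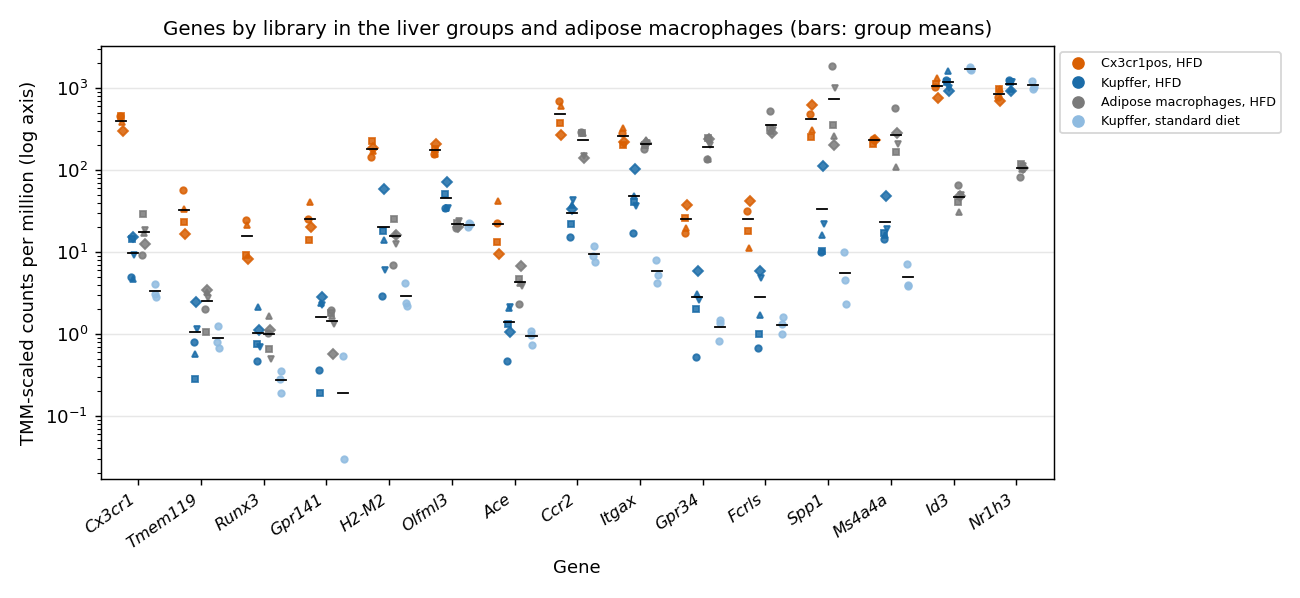
TMM-scaled CPM (log axis) of 15 genes in Cx3cr1-positive macrophages (orange), Kupffer cells (blue) and adipose macrophages (grey) on HFD and in Kupffer cells on standard chow (light blue); points are libraries and bars are group means. Tmem119, Runx3, Gpr141, H2-M2 and Olfml3 are highest in Cx3cr1-positive macrophages, Gpr34 and Fcrls are highest in adipose macrophages, and Id3 and Nr1h3 differ little between the liver groups.

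Receptors for chemokines rose in 6 of 13 cases and none passed as lower. Cx3cr1, a gene of the sort, is among the 6. Ccr1 stood at 169, 121, 73.6 and 81.4 CPM in Cx3cr1-positive hf1, hf2, hf3 and hfd2, against 7.57 CPM in Kupffer hfd1, 12.9 in hf1, 17.6 in hf2, 14.1 in hf3 and 33.0 in hfd2 (log2 fold change 2.71 ± 0.50, edgeR adjusted p = 0.00139). Cxcr4 rose by 1.52 ± 0.29 on the log2 scale (edgeR adjusted p = 0.00197). Against the frac_neg Kupffer libraries alone Ccr1 did not pass. Among chemokines Pf4 (platelet factor 4), Ccl3 and Ccl9 rose, and Cxcl13 and Ccl24 (an eosinophil attractant) fell, of 21 tested. Over all tested genes 5.85% were higher and 7.48% lower. Ccl3 lost the call without Cx3cr1-positive hf1 or hf3 and Ccl9 without Kupffer hfd1, Kupffer hf2 or Cx3cr1-positive hfd2. Ccl3 also lost it in the 9-library fit without Kupffer hfd2. With the pair as a block 6 chemokines were higher, and without Kupffer hf3 7 were.

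Of 23 integrins and adhesion molecules 6 were higher and 4 lower, where 5.85% of all tested genes were higher and 7.48% lower. Itgax (CD11c) averaged 256 ± 58.8 CPM in Cx3cr1-positive macrophages and 48.7 ± 32.1 CPM in Kupffer cells (SD, n = 4 and 5, edgeR adjusted p = 0.000177), and Itga4, Itga6, Itgad, Itgav and Itgb5 rose with it. Itgal (CD11a), Itgam (CD11b) and Itgb1 had log2 fold changes of 0.03, 0.03 and 0.01 that did not pass. Pecam1, Icam1 and Cd44 fell by 1.24, 0.63 and 0.47, and Cd44 and Itgad did not pass with the pair as a block. Itgad also lost the call without Kupffer hf2 or hf3 or without Cx3cr1-positive hf1 or hf2.

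Monocyte genes were mixed. Of 14 classical monocyte genes 3 were higher (Ccr2, Ms4a4c and S100a4) and 1 was lower (Ifitm6). The lower count is near the 7.48% of all tested genes that were lower, while 5.85% of all tested genes were higher. With the pair as a block 5 of the 14 were higher. In the unblocked fit Ly6c2 and Plac8 had log2 fold changes of 0.35 and -0.29 that did not pass the test. Ly6c2, the antigen used to tell classical monocytes apart in mice, stood at 4.74, 4.24, 6.75 and 5.93 CPM in Cx3cr1-positive hf1, hf2, hf3 and hfd2, against 4.98 CPM in Kupffer hfd1, 0.885 in hf1, 2.63 in hf2, 9.59 in hf3 and 3.18 in hfd2, and the groups overlapped. Of 14 nonclassical monocyte genes 4 were higher (Cx3cr1, Ace, Spn and Eno3) and 2 were lower (Adgre4 and Ceacam1), with Ceacam1 losing the call without Kupffer hfd1 or hf3 or without Cx3cr1-positive hf1, hf2 or hfd2. Cx3cr1 among these was a gene of the sort. Itgal and Treml4, also on the nonclassical list, did not pass the test between the liver groups. Itgal averaged 708 ± 59.4 CPM in Cx3cr1-positive macrophages and 8.11 ± 0.480 CPM in adipose macrophages, and Treml4 1027 ± 183 and 7.04 ± 1.64 CPM (SD, n = 4 and 5). Without Kupffer hfd2 in the 9-library fit 2 nonclassical genes were higher.

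The class II antigen presentation genes rose as a group. Class II molecules at the cell surface present peptides to CD4 T cells, and transcription of their genes depends on the coactivator CIITA. CIITA is recruited by factors bound to a conserved X and Y box module a short way upstream of class II genes. The list also holds Ciita itself and the protease gene Ctss. Of 12 tested 10 were higher and none passed as lower (median log2 fold change 1.44). H2-Oa lost the call without any 1 of the 9 libraries except Kupffer hf3 and Cx3cr1-positive hfd2, and H2-DMb2 without any 1 except Kupffer hf2, Kupffer hf3 and Cx3cr1-positive hfd2.

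Promoter stretches of the 5 genes that rose and hold the core of the Y box are shown because this module is a known element of class II genes. They are RefSeq sequences of build GRCm38.p6, each 100 bases, read 5′ to 3′ on the gene's own strand, and capitals mark the Y box core TGATTGG and, where present, the letters ATGATG of the X box region.
H2-Aa, chr17:34287834-34287933, minus strand: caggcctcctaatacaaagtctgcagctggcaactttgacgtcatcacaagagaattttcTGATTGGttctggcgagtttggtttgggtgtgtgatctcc
H2-Eb1, chr17:34305746-34305845, plus strand: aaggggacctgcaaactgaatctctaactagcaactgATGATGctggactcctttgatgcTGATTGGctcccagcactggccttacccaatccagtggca
H2-DMb1, chr17:34153068-34153167, plus strand: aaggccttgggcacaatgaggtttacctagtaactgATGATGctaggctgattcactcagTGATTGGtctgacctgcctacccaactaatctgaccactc
H2-DMb2, chr17:34145097-34145196, plus strand: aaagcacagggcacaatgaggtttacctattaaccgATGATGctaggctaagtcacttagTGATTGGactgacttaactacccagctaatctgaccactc
H2-Oa, chr17:34092274-34092373, plus strand: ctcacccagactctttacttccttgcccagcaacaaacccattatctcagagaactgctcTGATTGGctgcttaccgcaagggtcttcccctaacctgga

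The core TGATTGG starts 45 to 92 bases before the annotated start of these 5 genes. Of the 12 list members 9 had a promoter entry, and 7 of these held the core in the sense direction, including H2-Ob and H2-Eb2, which did not pass the test. Among the risen members 7 had a promoter entry, and 5 of these held the core. With the pair as a block H2-Eb2 passed as higher, at a log2 fold change of 1.97. In the 250 bases before the start, on either strand, 7.23% of all 32851 promoter windows held TGATTGG, 9.39% held ATGATG and 0.588% held both. H2-Eb1, H2-DMb1 and H2-DMb2 hold both, 17 to 18 bases apart, and so does H2-Ob, at 15 bases, which did not pass the test.

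The chains of the I-A and I-E molecules rose most. H2-Eb1 stood at 6463, 5942, 8487 and 5409 CPM in Cx3cr1-positive hf1, hf2, hf3 and hfd2, against 1187 CPM in Kupffer hfd1, 698 in hf1, 1618 in hf2, 1876 in hf3 and 2838 in hfd2 (log2 fold change 2.0 ± 0.27, edgeR adjusted p = 9.51e-05). The lowest Cx3cr1-positive library lay well above the highest Kupffer library, hfd2. H2-Ab1 and H2-Aa rose by 1.86 ± 0.27 and 1.80 ± 0.23, and Cd74, the invariant chain that guides class II molecules to the endosome, by 1.62 ± 0.20 (edgeR adjusted p = 0.000188, 6.03e-05 and 4.59e-05). H2-DMa and H2-DMb1, which encode the peptide-loading chaperone, rose by 1.0 and 1.05. H2 genes have close relatives in the same cluster, so reads may be split between them.

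Ciita rose as well, with 143, 164, 203 and 159 CPM in Cx3cr1-positive hf1, hf2, hf3 and hfd2, against 37.0 CPM in Kupffer hfd1, 17.2 in hf1, 65.2 in hf2, 60.0 in hf3 and 108 in hfd2 (log2 fold change 1.54 ± 0.34, edgeR adjusted p = 0.00594). The same-named pair hfd2 had the smallest difference, 0.56 on the log2 scale, and hf1 the largest, 3.02. Against adipose macrophages the class II genes were not lower: of the 10 risen genes 5 were higher than in adipose macrophages and 5 did not pass that test, H2-Aa, H2-Ab1, H2-Eb1, Cd74 and Ciita among them.

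**Figure D4:**
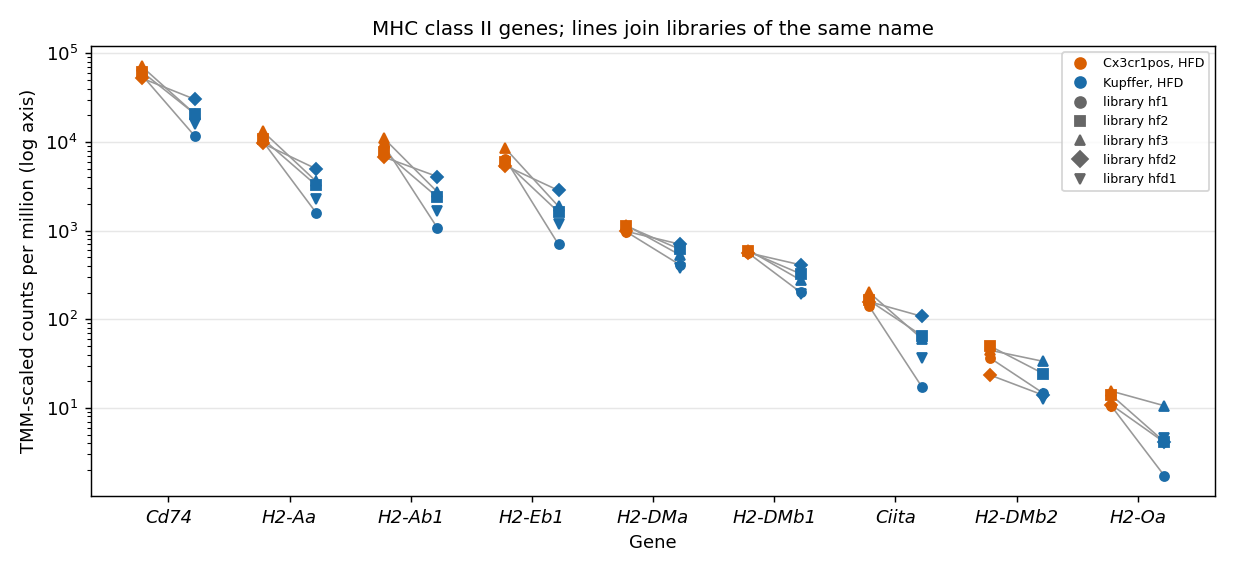
TMM-scaled CPM (log axis) of 9 class II genes in Cx3cr1-positive macrophages (orange, left of each pair) and Kupffer cells (blue, right) on HFD, with lines joining libraries of the same name; Kupffer hfd1 has no partner. Every line falls to the right, the shallowest lines for Cd74, the I-A and I-E chains and Ciita being those of hfd2.

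Costimulation was mixed. Icosl, the ICOS ligand, Havcr2 (TIM-3) and Tnfsf9 (4-1BB ligand) rose, with log2 fold changes of 1.28 ± 0.25, 1.72 ± 0.18 and 1.44 ± 0.26 (edgeR adjusted p = 0.00246, 9.75e-06 and 0.00141). Cd86 fell by 0.81 ± 0.17 (edgeR adjusted p = 0.0036), but did not pass against the frac_neg Kupffer libraries alone. Among C-type lectins 7 of 20 were higher and 3 lower, where 5.85% of all tested genes were higher and 7.48% lower. Clec5a, Clec4e (Mincle, a receptor for damaged cells and mycobacterial lipid) and Clec4b1 rose by 2.35, 2.49 and 1.47, and Cd209a rose by 3.12. The 3 that fell were Clec4f, Clec1b and Cd209f. Cd209f did not pass with the pair as a block, nor without Kupffer hf3 or without Cx3cr1-positive hf3 or hfd2, and Clec1b not without Cx3cr1-positive hf3, which left 1 lectin lower.

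Genes of lipid-associated macrophages, a state described in obese fat and steatotic liver and marked by TREM2, were higher in 13 of 25 cases and lower in 2, Colec12 and Ctsl, the second of which lost the call without Cx3cr1-positive hf3. Trem2 stood at 512, 526, 479 and 768 CPM in Cx3cr1-positive hf1, hf2, hf3 and hfd2, against 103 CPM in Kupffer hfd1, 134 in hf1, 233 in hf2, 140 in hf3 and 373 in hfd2 (log2 fold change 1.54 ± 0.28, edgeR adjusted p = 0.00133). The groups did not overlap, and hfd2 was the highest library of each. Spp1 (osteopontin) averaged 416 ± 167 CPM in Cx3cr1-positive macrophages and 33.8 ± 43.3 CPM in Kupffer cells (SD, n = 4 and 5), with Kupffer hfd2 at 111 CPM. Its log2 fold change was 3.62, and 4.82 without Kupffer hfd2. Against the frac_neg Kupffer libraries alone Spp1 did not pass. None of the 13 risen genes exceeded the adipose level: 10 were lower than in adipose macrophages and 3 did not pass that test. Lpl, Apoe, Lipa, Ctsd and Mmp12 did not pass the test between the liver groups, and Apoe passed as higher with the pair as a block, at 0.61. Against the frac_neg Kupffer libraries alone, hfd1 and hfd2, 6 of the 25 were higher.

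Gpnmb and Vcam1 show how far the name hfd2 set libraries apart in both groups. Gpnmb, a glycoprotein of lysosomal stress, stood at 1446, 1563, 1647 and 4105 CPM in Cx3cr1-positive hf1, hf2, hf3 and hfd2, against 389 CPM in Kupffer hfd1, 124 in hf1, 286 in hf2, 248 in hf3 and 1585 in hfd2. Its log2 fold change was 2.06 ± 0.66 (edgeR adjusted p = 0.0497), and the call was lost without any 1 of the 9 libraries except Kupffer hfd2, without which the log2 fold change was 3.05. Vcam1, an adhesion molecule for leukocytes, stood at 4015 CPM in Cx3cr1-positive hfd2 and 906 to 1434 CPM in the other Cx3cr1-positive libraries, against 4936 CPM in Kupffer hfd2 and 1466 to 2322 CPM in the other Kupffer libraries, and did not differ between the groups beyond that spread (edgeR adjusted p = 0.682). With the pair as a block Vcam1 passed as lower at a log2 fold change of -0.63.

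Cholesterol synthesis genes differed by little, and their count moved with the libraries used. Of 24 tested 11 were higher and none passed as lower, with a median log2 fold change of 0.44. Sqle (squalene epoxidase) and Cyp51 had log2 fold changes of 0.97 ± 0.22 and 0.70 ± 0.16 (edgeR adjusted p = 0.00725 and 0.00824), and adipose macrophages were higher still for both. The count of higher members was 6 without Kupffer hf1, Cx3cr1-positive hf1 or Cx3cr1-positive hfd2, 7 without Kupffer hf2 or hf3, 5 without Kupffer hfd2 in the 9-library fit, and 1 against the frac_neg Kupffer libraries alone.

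Of 25 cell cycle genes 6 were higher and none was lower, where 5.85% of all tested genes were higher. Mcm5, a subunit of the replicative helicase, averaged 108 ± 6.30 CPM in Cx3cr1-positive macrophages and 66.7 ± 17.1 CPM in Kupffer cells (SD, n = 4 and 5, edgeR adjusted p = 0.0059), and Pcna, the sliding clamp, rose by 0.37 on the log2 scale. Mki67 and Top2a did not pass (log2 fold changes 0.49 and 0.52), and both passed with the pair as a block, at 0.53 and 0.68. The count was 3 without Kupffer hf1, hf2 or hf3, or without Cx3cr1-positive hf3 or hfd2, and 13 with the pair as a block. It was 14 with a term for the name prefix (hf or hfd). Against the frac_neg Kupffer libraries alone it was 1, and Mcm5 did not pass there. Of 21 interferon-stimulated genes tested 1, Oasl1, was lower and none was higher, where 7.48% of all tested genes were lower. With the pair as a block 3 of the 21 were lower, and 2 were under DESeq2. Stat2 had a log2 fold change of -0.01.

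Cytokines split evenly, with 4 higher and 4 lower of 22, against shares of 5.85% higher and 7.48% lower over all tested genes. Osm (oncostatin M) averaged 14.3 ± 4.09 CPM in Cx3cr1-positive macrophages and 2.11 ± 2.10 CPM in Kupffer cells, and Hbegf, a ligand of the EGF receptor, 22.8 ± 5.60 and 76.5 ± 22.1 CPM (SD, n = 4 and 5, edgeR adjusted p = 0.00115 and 2.64e-05). Pdgfb rose by 1.44 on the log2 scale, and Osm by 2.76, or 3.54 without Kupffer hfd2. In the 9-library fit without Kupffer hfd2 Pdgfb did not pass. Il1b, Il1rn and Igf1 had log2 fold changes of 0.08, -0.02 and -0.18 that did not pass. The count of lower members was 1 without Cx3cr1-positive hf1 or hf3, and that of higher members 2 without Kupffer hfd1 or Cx3cr1-positive hf3. Matrix metalloproteinases also split: Mmp14 and Mmp2 rose by 1.75 ± 0.32 and 1.55 ± 0.32, while Mmp9 fell by 2.79 ± 0.63 (edgeR adjusted p = 0.00142, 0.00351 and 0.00668). Without Kupffer hfd1 Mmp9 fell by 2.13, and without Cx3cr1-positive hf2 by 3.39.

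**Figure D5:**
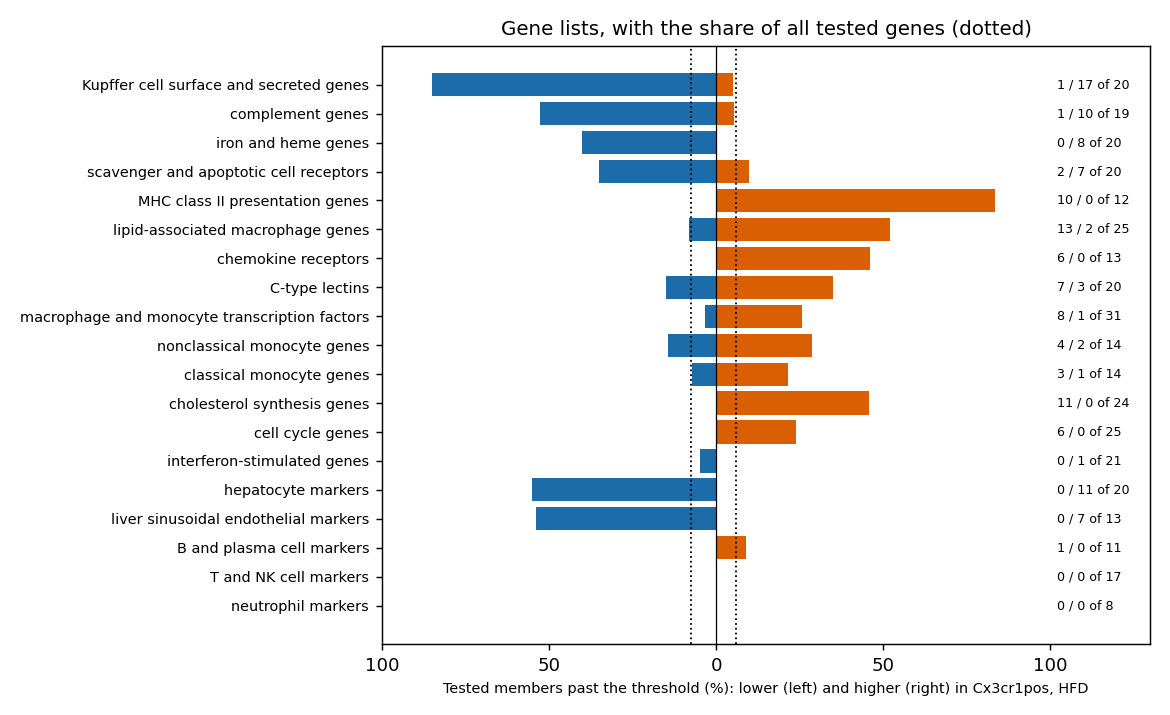
Share of the tested members of 19 gene lists that passed the threshold as lower (blue, left) or higher (orange, right) in Cx3cr1-positive macrophages, with the counts higher and lower of all tested members at the right; dotted lines give the share of all tested genes, 7.48% lower and 5.85% higher. Kupffer, complement and hepatocyte genes extend to the left, and class II, lipid-associated and cholesterol synthesis genes to the right. Timd4 and Cx3cr1, genes of the sort, are counted in the lists that hold them.

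Markers of other liver cells moved with the comparison. Of 20 hepatocyte markers 11 were lower in Cx3cr1-positive libraries, and their sum was 105 to 183 CPM in Cx3cr1-positive and 180 to 802 CPM in Kupffer libraries. Sinusoidal endothelial markers were lower in 7 of 13 cases, with sums of 1420 to 2370 CPM in Cx3cr1-positive and 1990 to 7440 CPM in Kupffer libraries. Clec4g, an endothelial lectin, stood at 157, 180, 159 and 103 CPM in Cx3cr1-positive hf1, hf2, hf3 and hfd2, against 802 CPM in Kupffer hfd1, 203 in hf1, 116 in hf2, 745 in hf3 and 288 in hfd2, so that Kupffer hfd1 and hf3 were high. Clec4g overlapped between the groups and lost the call with the pair as a block and without Kupffer hfd1 or hf3 or Cx3cr1-positive hf1, hf3 or hfd2. The endothelial count was 2 without Kupffer hfd1 or hf3, 2 without Cx3cr1-positive hf1, hf3 or hfd2, 4 without Cx3cr1-positive hf2, 11 without Kupffer hf2, and 1 with the pair as a block. Their part in the fall of genes that endothelial cells also express, such as Cdh5, Pecam1 and Colec12, was not tested. Erythroid genes were lower in 6 of 6 cases at sums of 5.58 to 21.0 CPM in Cx3cr1-positive and 15.7 to 99.2 CPM in Kupffer libraries, and the count was 1 without Kupffer hfd1 or without Cx3cr1-positive hf1 or hf2, 2 without Kupffer hfd2 or Cx3cr1-positive hfd2, and 3 without Kupffer hf3.

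Markers of B cells leaned higher in Cx3cr1-positive libraries, but only 1 of 11 passed the test. The fitted log2 fold change was above 0 for each of the 11 B and plasma cell markers, with a median of 0.85, where the median of all tested genes was 0.00196. Cd79b alone passed as higher (log2 fold change 1.34 ± 0.27, edgeR adjusted p = 0.00283), where 5.85% of all tested genes were higher. The sums of the list overlapped, at 936 to 2890 CPM in Cx3cr1-positive and 509 to 1220 CPM in Kupffer libraries. As many as 4 of the 11 passed as higher when the frac_neg Kupffer libraries alone were used. B cells also express class II genes, Cd74 and Ciita, and the part of these markers in the rise of those genes was not tested. Of 15 dendritic cell markers Cd209a alone passed, near the 5.85% of all tested genes that were higher. Flt3, Zbtb46 and Xcr1 did not pass. The sums were 616 to 800 CPM in Cx3cr1-positive and 505 to 769 CPM in Kupffer libraries. Of 6 mast cell and basophil markers 1 passed, and their median log2 fold change was 2.03, with sums of 1.03 to 40.1 CPM in Cx3cr1-positive and 1.19 to 6.17 CPM in Kupffer libraries. None of 8 neutrophil, 11 stellate cell or 6 platelet markers passed. Prss34, a basophil protease and the marker that passed, did so at an adjusted p of 0.0499 in edgeR's test but stood at 30.9 and 10.7 CPM in Cx3cr1-positive hf2 and hfd2 and at 0 and 0.187 CPM in hf1 and hf3, and it overlapped the Kupffer libraries at 0 to 1.05 CPM. The call was lost with the pair as a block and without any 1 of the 9 libraries except Cx3cr1-positive hf1 and hf3, and its log2 fold change of 4.79 was 3.27 without Cx3cr1-positive hf2 and 5.68 without Kupffer hf3.

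Kupffer hfd2 lay toward the Cx3cr1-positive group in genes that rose and in genes that fell. It was 46.1% of the way for Cd74, 49.6% for H2-Eb1, 55.7% for Itgax, 62.0% for Spp1 and 63.3% for H2-M2, and 56.2% of the way for Bmpr1a. For Ccr2 and Runx3 it was 7.30% and 6.56% of the way. The median over the genes called at 2-fold or more was 22.3%. Genes with the highest positions of Kupffer hfd2 were sought out for naming, so the high values are not typical. Without Kupffer hfd2 the count of called genes was 2051, and without the hfd2 library of both groups 1995.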

How the data were processed

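The authors deposited raw counts of reads per gene. Per the submitters' processing notes, reads were aligned with STAR 2.0.4b and counted with featureCounts 1.4.5. The genome build and the strand setting are not given in the sources used here. Identical repeats of an identifier were dropped, which left 40548 genes. All 17 libraries were fitted with edgeR 4.0.16 (R 4.3.3) by a quasi-likelihood test on group means after TMM scaling and filterByExpr, and Cx3cr1-positive macrophages on HFD were contrasted with Kupffer cells and, in the same fit, with adipose macrophages. Both contrasts share the Cx3cr1-positive libraries. P-values were adjusted by Benjamini-Hochberg over 15285 genes, with a threshold of 0.05. The SE of a log2 fold change was derived from the test, as its absolute value over the square root of the F statistic. Levels are TMM-scaled CPM, and pair differences were taken on log2(CPM + 0.5). The procedure was tested on simulated data before use.

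Samples were grouped by their labels. The same-named libraries of the groups deviated together from their group means, with correlations of 0.263 for hf1, 0.213 for hf2, 0.305 for hf3 and 0.377 for hfd2 across genes. Libraries of different names ranged from -0.292 (Cx3cr1-positive hfd2 with Kupffer hf3) to 0.188 (Cx3cr1-positive hfd2 with Kupffer hfd1). The names were therefore taken to pair the libraries, although 0.188 lies close to the 0.213 of hf2. The pairing comes from the names, which the labels do not explain. The closest counts of any 2 of the 9 libraries differed beyond sampling noise.

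The comparison, the 39 gene lists and their members were chosen with earlier results of these data known. Genes named are the 20 largest rises and falls among called, non-overlapping genes whose higher group averaged 20 CPM or more, the leading and contrary members of each list, the sort genes, the largest shifts in CPM, and listed genes that changed least. Genes in which Kupffer hfd2 lay farthest toward the Cx3cr1-positive mean were also taken. Others were named after their values were seen. Promoters are RefSeq sequences matched by symbol. DESeq2 1.42.0, other scalings, no filter, pair and name-prefix terms, subsets of libraries and each library left out served as alternatives.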

Additional observations from a re-analysis of the deposited data

Results flagged for a closer look

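For the genes named, 302 groups of 4 or 5 libraries were searched for a highest or lowest library far from the others, and 31 had one. For normally distributed values chance alone flags about 1 in 20. The search used CPM without a log transform, so that rate may not hold here. The name hfd2 accounts for 19 of the 31, 11 in Cx3cr1-positive macrophages and 8 in Kupffer cells, while the other names have 0 to 4 in each group. Some genes were named because Kupffer hfd2 lay far toward the Cx3cr1-positive mean, so its 8 flags follow in part from that choice.

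In Cx3cr1-positive hfd2 these genes stood above the other libraries of the group: Vcam1 at 4010 CPM, Gpnmb at 4100, Lpl at 4630, Trem2 at 768, Ccl9 at 446, Top2a at 109, C6 at 83.6, C4b at 70.9, Flt3 at 24.6, Colec12 at 11.8 and Slc1a3 at 7.81. In Kupffer hfd2 Vcam1 at 4940 CPM, Gpnmb at 1590, Ccl9 at 262, Spp1 at 111, Pparg at 71.1, H2-M2 at 58.7 and Myo5a at 14.3 stood above the others, and Sdc2 at 48.3 stood below them. Vcam1, Gpnmb and Ccl9 were high in hfd2 of both groups.

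In the other Cx3cr1-positive libraries Marco was low in hf2 at 11.5 CPM, Itga6 was high in hf1 at 51.4, and Tnfsf9 and Icosl were high in hf3 at 23.1 and 70.3, the last within a narrow range. In the other Kupffer libraries hf3 was high for Ccl3 at 156 CPM, H2-Ob at 34.2 and Tnfsf9 at 10.2. Kupffer hfd1 was high for Adgre1 at 7010 CPM, Icam1 at 407, Mmp9 at 8.82 and Krt80 at 6.88, and Kupffer hf2 for Clec1b at 1220. No technical record in the labels separates these libraries further, and the cause was not tested.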

How the results depend on the processing

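All 4 counts of called genes (all, higher, lower and at least 2-fold) stayed within 1.5 times the reported ones under DESeq2, other scalings, no count filter, the 9 libraries alone, a name-prefix term, the hf libraries alone and without both hfd2 libraries. The replicate block over the 4 same-named pairs gave 1889 called genes, 909 higher and 980 lower, with 890 at least 2-fold. The same 8 libraries without the block gave 1014, 404, 610 and 673. Against the frac_neg Kupffer libraries alone 508 genes were higher. Leaving out 1 library at a time gave 1327 to 2114 called genes, 572 to 885 higher, 755 to 1309 lower and 838 to 1262 at least 2-fold. The cause of these shifts was not tested. Among the genes named, the block changed no call other than those given in the report. Under fits chosen after seeing the data, the 9 libraries without Kupffer hfd2 gave 1450 called genes and the block over the 3 pairs without hfd2 gave 1640. Of the values for single genes and lists under the alternatives, 5809 kept their side of the threshold or stayed within 1.5 times, 527 fell short of it, 76 newly passed it, and 230 list counts moved beyond 1.5 times. No named gene that passed the threshold changed sign under any alternative, while 15 of the 151 named genes, none of them past the threshold, changed sign under at least 1. Other scalings moved the median of all genes by less than 0.1 on the log2 scale (-0.00922 for total counts and -0.0196 for RLE size factors). With 25644835 to 38207943 counts in each of the 9 libraries, how far depth or the number of libraries limits the tests was not examined.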
